A study of Rattus norvegicus with 9 samples.

Results

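Ipsilateral dorsal root ganglia (DRGs) of rats that received electroacupuncture (EA) after chronic post-ischemia pain (CPIP) were compared with those of CPIP rats that received none. The members are the 3 CPIP+EA and the 3 CPIP RNA-Seq libraries, 6 of the 9 libraries of the study, and the other 3 are Sham libraries that serve as a reference level. All genes with a mean of at least 0.1 FPKM over the 9 libraries were tested, 17187 of 20413 genes. All rats were male Sprague-Dawley rats of 8 to 10 weeks. In CPIP, the right hind paw was made ischemic for 3 h with a tight O-ring and then reperfused, and Sham rats wore a cut O-ring that did not stop the flow of blood. The CPIP+EA rats were loosely immobilized and needled at ST36 and BL60 of both hind limbs, with a current of 100 Hz once daily for 10 consecutive days. The L4-6 ganglia of the injured side were collected on day 10, after perfusion with saline, with 1 library per rat. Immobilization and needles are described for the CPIP+EA rats only, and no group of the 3 is labelled as needled without current, so that the current, the needles and the handling cannot be told apart. The hour of day at which the ganglia were taken is not given in the sources used here.

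A DRG holds the cell bodies of sensory neurons, including the nociceptors that signal pain from the limb, together with satellite glia, Schwann cells around the axons, vessels, resident macrophages and a connective tissue capsule that continues the leptomeninges. Its neurons answer damage to their axons with a program that includes the neuropeptides galanin, VIP and NPY. Most cells of the body, those of the DRG included, also run a circadian clock, in which CLOCK and ARNTL (BMAL1) drive the Per and Cry genes and output factors such as DBP, and the PER and CRY proteins then repress CLOCK and ARNTL.

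The deposited table held FPKM values, which are reads scaled by transcript length and by all mapped reads of the library, with 2 decimals. The sums of FPKM per library lay between 445647 and 482940, and 18279 to 18456 genes were above 0. Reads per library are listed by the study but were not used here, because the table holds no counts from which the precision of a value could be computed, and the spread between the 3 libraries of a group is the error given. Neuronal markers were abundant in each library, with neurofilament light chain Nefl between 2352 and 3254 FPKM. CPIP+EA replicate 3 stood apart. It had the highest value of the 9 libraries for 21 of 22 neutrophil markers tested, 18 of 22 interferon-stimulated genes and 16 of 21 cell division genes. Many results are therefore also given without this library.

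No gene passed the threshold between CPIP+EA and CPIP, which required a limma adjusted p under 0.01 together with a change of 1.5-fold or more either way, that is 0.00% of the genes tested. The smallest adjusted p was 0.113, for Sec14l3. At an unadjusted p under 0.05 there were 382 genes with higher values in CPIP+EA (2.22%) and 356 with lower values (2.07%), 738 in all where a level of 0.05 by itself gives 859. All 3 CPIP+EA values lay above all 3 CPIP values for 831 genes (4.84%) and below them for 584 genes (3.40%). The log2 fold change was above 0 for 9289 genes (54.0%) and below 0 for 7887 (45.9%), with a median of 0.01. Those percentages are the background for each count of listed genes that follows. The split at an unadjusted p under 0.05 moved with the scaling. Higher values made up 51.8% of these genes as deposited, 41.9% on the TPM scale and 62.5% after median centring.

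Left-out libraries changed which genes passed. Without CPIP+EA replicate 1 the genes past the threshold were Sec14l3 and LOC108348140, and the genes at an unadjusted p under 0.05 numbered 592 higher and 580 lower. Without CPIP+EA replicate 3 it was Brms1, with 511 higher and 737 lower. Without CPIP replicate 3 it was LOC100910581, and Ndufa10l1 passed without Sham replicate 3 and in a fit of the 6 CPIP and CPIP+EA libraries alone. Without CPIP replicate 2 the lower genes numbered 232, and without CPIP+EA replicate 2 they numbered 227. None of the differences described next therefore counts as a differentially expressed gene at the threshold. They are given as levels with the spread between libraries. Of the 305 list genes tested with a log2 fold change under 0.2 in size, 215 (70.5%) changed sign with 1 or another library left out, and of the 271 with a larger one, 70 (25.8%) did, so that values near 0 carry no direction.

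Sec14l3 had the smallest p-value of the comparison. It encodes a member of the Sec14-like family, whose proteins carry lipids in a CRAL-TRIO pocket. It had 0.22, 0.33 and 0.66 FPKM in the CPIP libraries and 3.43, 6.33 and 9.08 FPKM in the CPIP+EA libraries, against 0.61, 0.65 and 0.93 FPKM in Sham. All 3 CPIP+EA values stood above the other 6 libraries. The means were 0.403 ± 0.229 FPKM in CPIP and 6.28 ± 2.83 FPKM in CPIP+EA (SD, n = 3). After addition of 0.5 FPKM, which makes the change of so low a gene look smaller, the log2 fold change was 2.85 (SE 0.31) and stayed between 2.55 and 3.19 when each library was left out in turn. The adjusted p of 0.113 moved between 0.00758 and 0.595 over the other 19 settings of the limma fit. Of 9 members tested, Sec14l3 alone was at an unadjusted p under 0.05, and the log2 fold changes of the other 8 lay between -0.19 for Sec14l5 and 0.11 for Sec14l4. The abundant paralogs Sec14l1 and Sec14l2 had log2 fold changes of 0.02 and 0.04. Sec14l1 had 44.4, 50 and 46 FPKM in CPIP and 52.1, 45.1 and 45.6 FPKM in CPIP+EA, values that overlapped.

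The rat RefSeq promoter of Sec14l3 (GRCr8, chr14:83168008-83168257, + strand) is shown because it holds a D-box, the sequence bound by the clock output factors DBP, TEF and HLF and by the repressor NFIL3. It reads 5′ to 3′ over the 250 bases before the transcription start, with the D-box in capitals.
Sec14l3: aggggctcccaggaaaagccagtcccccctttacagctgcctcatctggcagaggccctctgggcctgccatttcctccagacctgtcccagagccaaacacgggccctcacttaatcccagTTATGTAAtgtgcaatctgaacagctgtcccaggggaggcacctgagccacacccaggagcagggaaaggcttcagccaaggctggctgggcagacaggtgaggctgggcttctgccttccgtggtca
The D-box begins 128 bases before the start. The letters TTATGTAA, on either strand, were found in 299 of 33469 rat promoter windows of 300 bases (0.893%). A match of letters is a description of the window, and binding was not measured. Sec14l3 was searched with its values known, and whether the clock acts on it was not tested.

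**Figure D1:**
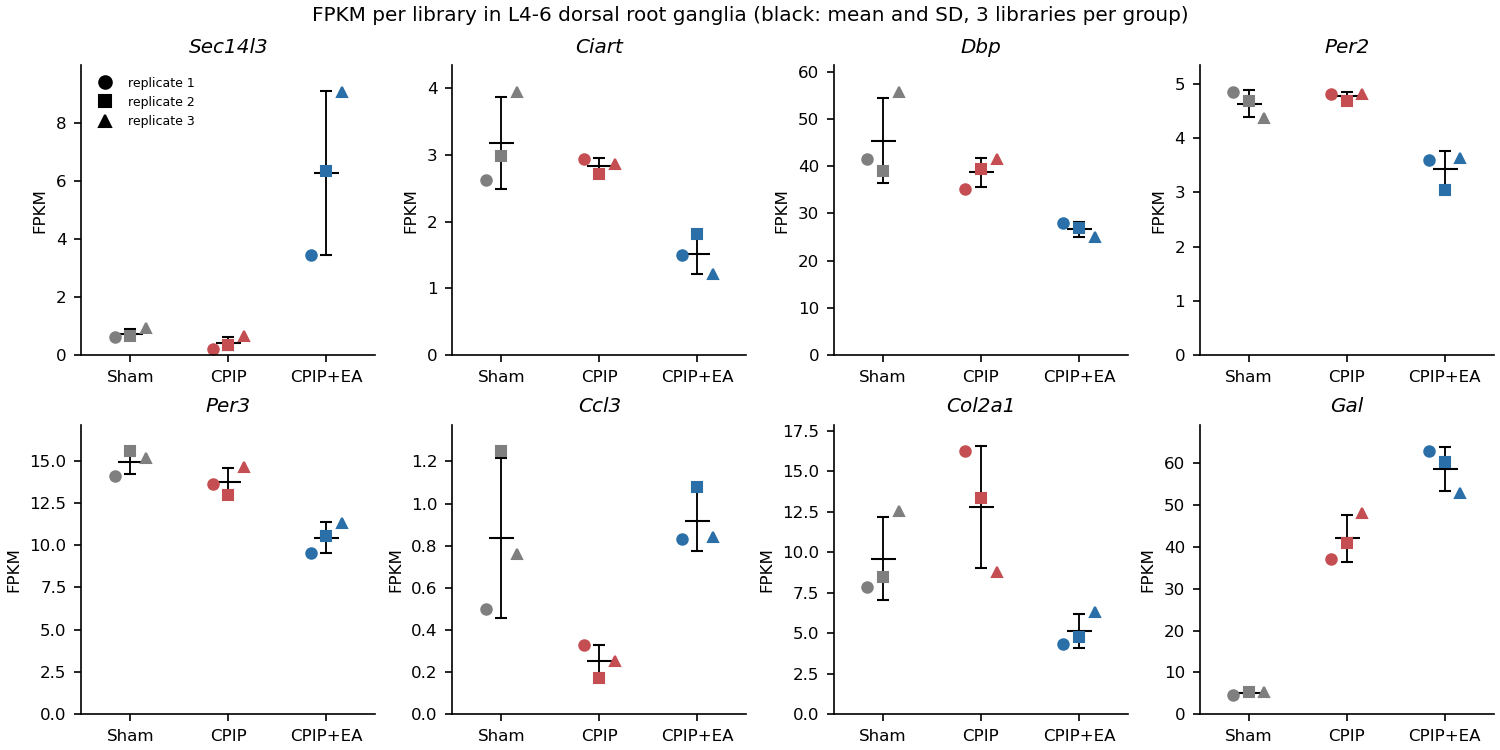
FPKM (y axis, from 0) of 8 genes in each library of the Sham, CPIP and CPIP+EA groups (x axis), with the mean and SD of 3 libraries in black. In CPIP+EA, Sec14l3 sits between 3.43 and 9.08 FPKM, above the other groups, while Ciart, Dbp, Per2, Per3 and Col2a1 lie below all 3 CPIP values, and Ccl3 and Gal lie above them.

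Genes of the circadian clock had lower values in CPIP+EA on the side of the Per genes and the output factors, and higher values for Arntl and Nfil3. Of the 13 genes tested in the output and nuclear receptor loop, 5 lay wholly below CPIP and 1 wholly above it. In the core loop, 2 of 11 lay wholly below and 1 wholly above. The median log2 fold change was -0.17 for the output loop and 0.03 for the core loop, where the median of all genes was 0.01. These genes were chosen with earlier results of these libraries known, so the counts describe them and test nothing.

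The period genes and the output factors share a mode of control. CLOCK and ARNTL bind the E-box CACGTG, and DBP, TEF and HLF bind the D-box. The RefSeq promoter table used here had entries for 19 of the 25 clock genes listed. These genes had 21 windows, since Clock and Nr1d1 have a pair each. An E-box was found in 5 of the 21, those of Ciart, Tef, Bhlhe40, Bhlhe41 and 1 of Nr1d1, while 6.42% of all 33469 promoter windows held one, all searched over the same 300 bases. A D-box was found in 1 of the 21, that of Per2. The other carriers overlapped between the groups, with log2 fold changes of -0.17 for Nr1d1, 0.07 for Bhlhe40 and -0.18 for Bhlhe41, the last -0.05 without CPIP+EA replicate 3. The promoters of Ciart, Tef and Per2 are shown as those of the carriers that lay wholly below CPIP, a choice made with these values known. Each is 250 bases before the start, 5′ to 3′, with the E-box or D-box in capitals, at chr2:186112247-186112496, - strand for Ciart, chr7:115206577-115206826, + strand for Tef and chr9:99496994-99497243, - strand for Per2 (GRCr8).
Ciart: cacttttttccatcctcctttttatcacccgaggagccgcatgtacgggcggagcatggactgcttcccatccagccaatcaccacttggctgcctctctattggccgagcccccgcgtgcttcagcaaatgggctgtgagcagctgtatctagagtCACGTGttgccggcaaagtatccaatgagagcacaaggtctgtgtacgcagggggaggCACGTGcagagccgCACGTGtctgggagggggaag
Tef: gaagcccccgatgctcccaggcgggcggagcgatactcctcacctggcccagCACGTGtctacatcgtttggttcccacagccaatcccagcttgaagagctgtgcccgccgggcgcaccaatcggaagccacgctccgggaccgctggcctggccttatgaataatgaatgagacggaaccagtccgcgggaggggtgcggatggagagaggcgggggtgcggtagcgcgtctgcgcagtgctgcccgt
Per2: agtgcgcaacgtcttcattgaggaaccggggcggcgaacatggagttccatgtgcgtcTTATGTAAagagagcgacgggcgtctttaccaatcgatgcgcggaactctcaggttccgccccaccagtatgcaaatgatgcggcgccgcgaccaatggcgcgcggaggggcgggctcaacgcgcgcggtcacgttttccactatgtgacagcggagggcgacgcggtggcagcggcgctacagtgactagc
The 3 E-boxes of Ciart begin 93, 35 and 21 bases before the start, and that of Tef 198 bases before it. The D-box of Per2 begins 192 bases before the start. The windows of Dbp, Per3 and Arntl held neither motif, which says only that these letters are not in those windows.

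Ciart, a transcriptional repressor of CLOCK and ARNTL, had the lowest log2 fold change of the output loop. Its values were 2.94, 2.71 and 2.87 FPKM in CPIP and 1.5, 1.81 and 1.22 FPKM in CPIP+EA, with 2.62, 2.98 and 3.95 FPKM in Sham. The CPIP+EA libraries were below the other 6, and the log2 fold change was -0.74 (SE 0.16, between -0.85 and -0.64 with each library left out). Dbp, the PAR bZIP activator whose transcript follows the clock closely, had 35.2, 39.3 and 41.4 FPKM in CPIP and 28.1, 26.8 and 24.9 FPKM in CPIP+EA. Sham values were 41.6, 38.9 and 55.8 FPKM, and again each CPIP+EA library was the lower one. The log2 fold change of Dbp was -0.53 (SE 0.13, -0.59 to -0.48 with each library left out). Its relatives had smaller differences in the same direction. Hlf had 1.43, 1.52 and 1.97 FPKM in CPIP and 1.07, 0.95 and 1.13 FPKM in CPIP+EA, with a log2 fold change of -0.46 (SE 0.14). Tef had 29.8, 30.2 and 32.6 FPKM in CPIP and 26.9, 29.5 and 27.5 FPKM in CPIP+EA, with a log2 fold change of -0.14 (SE 0.06). The groups did not overlap for either gene.

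The repressors Per2 and Per3 showed the same order of groups. Per2 had 4.82, 4.68 and 4.82 FPKM in CPIP, a spread of under 0.2 FPKM, and 3.6, 3.04 and 3.63 FPKM in CPIP+EA. Per3 had 13.6, 13 and 14.6 FPKM in CPIP and 9.53, 10.5 and 11.3 FPKM in CPIP+EA. Their log2 fold changes were -0.43 (SE 0.09) and -0.38 (SE 0.08), and Sham lay with CPIP, at 4.86, 4.68 and 4.37 FPKM for Per2 and 14.1, 15.6 and 15.2 FPKM for Per3. Per1, which also answers acute signals, had the lowest log2 fold change of the core loop, -0.76 (SE 0.37), but its groups overlapped, with 26.1, 26.7 and 14.5 FPKM in CPIP and 12.7, 14.6 and 10.6 FPKM in CPIP+EA. Sham values of Per1 spread as widely, at 7.81, 23.9 and 11.5 FPKM. Wee1, the cell cycle kinase gene that the clock drives, had 11.3, 10.7 and 10.5 FPKM in CPIP and 8.2, 8.4 and 8.32 FPKM in CPIP+EA, which is close to its Sham level of 8.59, 8.7 and 7.5 FPKM. Its log2 fold change of -0.36 stayed between -0.38 and -0.33 with each library left out.

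Arntl and Nfil3 lay on the other side. Arntl had 3.71, 3.89 and 3.71 FPKM in CPIP, 3.71, 3.81 and 3.74 FPKM in Sham and 4.25, 4.63 and 5.98 FPKM in CPIP+EA, with a log2 fold change of 0.34 (SE 0.12) that was 0.21 without CPIP+EA replicate 3. Nfil3, the repressor that competes with DBP for the D-box, had 2.57, 2.08 and 2.21 FPKM in CPIP and 3.89, 2.68 and 2.84 FPKM in CPIP+EA, with a log2 fold change of 0.37 (SE 0.15). Its Sham libraries were lower, at 1.19, 1.59 and 1.3 FPKM. The nuclear receptors of the loop differed less. Nr1d1 and Nr1d2 had log2 fold changes of -0.17 and -0.17, and Cry1, Cry2 and Clock had -0.19, -0.04 and 0.03, all 5 with overlapping groups. Cry2 and Clock changed sign without CPIP+EA replicate 3, at 0.02 and -0.04. The adjusted p of each clock gene named here was at least 0.944.

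**Figure D2:**
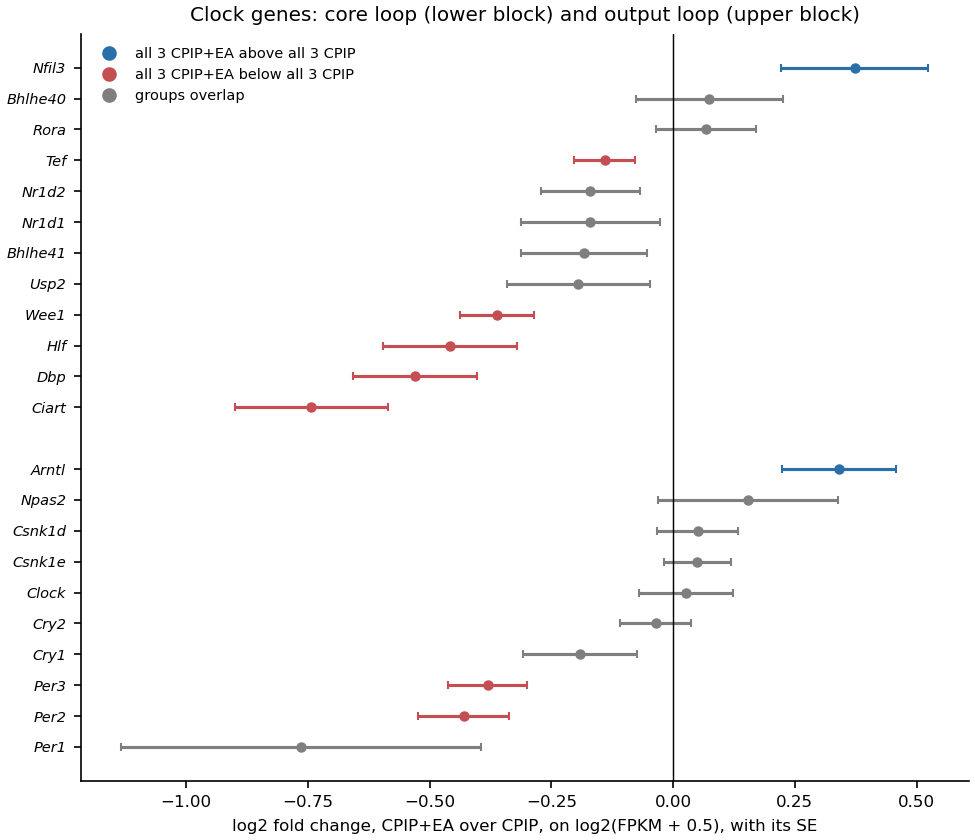
Log2 fold change of CPIP+EA over CPIP (x axis, on log2(FPKM + 0.5), bar: SE) of 22 clock genes (y axis), colored by whether the 3 CPIP+EA values lie wholly above, wholly below or among the 3 CPIP values. The 7 points wholly below run from Ciart at -0.74 to Tef at -0.14, and Arntl and Nfil3 lie wholly above.

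Glucocorticoids, hormones that also act on Per1, induce a set of genes of which most had lower values in CPIP+EA. Of 15 tested, 10 had a log2 fold change below 0, 4 at an unadjusted p under 0.05, and the median was -0.21. That median was -0.31 without CPIP replicate 3 and -0.14 without CPIP replicate 1. Dusp1, a phosphatase that switches off MAP kinases, had 17.3, 16.5 and 14.4 FPKM in CPIP and 14.2, 10.6 and 11 FPKM in CPIP+EA, which did not overlap. Ddit4, an inhibitor of mTORC1, had 71.3, 71.9 and 48 FPKM in CPIP and 49.2, 41.9 and 38.2 FPKM in CPIP+EA, with overlap of 1 library of each group. Tsc22d3 (GILZ), which carries part of the anti-inflammatory action of glucocorticoids, had 150.4, 129 and 130.4 FPKM in CPIP and 119.8, 114 and 121 FPKM in CPIP+EA, wholly below CPIP. The metallothionein Mt1 and the EGFR inhibitor Errfi1 had log2 fold changes of -0.48 (SE 0.20) and -0.56 (SE 0.24), with overlapping groups. Fkbp5, among the most direct targets of the receptor, had a log2 fold change of 0.13, and the receptor gene Nr3c1 -0.04. Among 26 immediate early genes tested, 11 were above 0 and the median was -0.03. Klf2, a factor that blood flow induces in endothelium, had 10.6, 11.7 and 7.31 FPKM in CPIP and 6.4, 4.39 and 7.44 FPKM in CPIP+EA. CPIP+EA replicate 1 had the highest value of the 6 libraries for Egr1 and Fosb, 21.6 and 4.69 FPKM, where the other 5 lay between 4.24 and 9.44 FPKM for Egr1 and between 0.19 and 1.3 FPKM for Fosb.

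Among inflammatory signals, the chemokine Ccl3 (MIP-1α), which recruits monocytes and other leukocytes, separated the groups most. It had 0.33, 0.17 and 0.25 FPKM in CPIP and 0.83, 1.08 and 0.84 FPKM in CPIP+EA. Sham values of 0.5, 1.25 and 0.76 FPKM spanned the CPIP+EA range. The log2 fold change was 0.92 (SE 0.20) and 0.96 without CPIP+EA replicate 3. Ccl9, a ligand of the same receptor CCR1, had 0.25, 0.16 and 0.08 FPKM in CPIP and 1.07, 0.47 and 0.28 FPKM in CPIP+EA, and the monocyte chemokine Ccl7 had 2.79, 2.74 and 2.96 FPKM and 5.01, 3.33 and 4.3 FPKM. Both were wholly above CPIP, with log2 fold changes of 0.68 (SE 0.32) and 0.49 (SE 0.25). That of Ccl9 was 0.40 without CPIP+EA replicate 1. Ccl2, the main ligand of CCR2, lay wholly below instead, with 31, 31.6 and 33 FPKM in CPIP and 30, 28.6 and 23.3 FPKM in CPIP+EA. Over the 29 chemokine ligands tested the log2 fold change was above 0 for 15, with 3 wholly above CPIP and 2 wholly below. Ccl24 (eotaxin-2) was beside Ccl3 the other ligand at an unadjusted p under 0.05, with 1.18, 1.92 and 0.7 FPKM in CPIP and 2.47, 1.46 and 2.71 FPKM in CPIP+EA, which overlapped, and its log2 fold change of 0.65 was 0.40 without CPIP replicate 3. The list median of 0.06 became -0.12 without CPIP+EA replicate 3. The 16 chemokine receptors tested had a median of 0.10, -0.07 without that library, and the most abundant of them, the scavenger Ackr1 and the CXCL12 receptor Cxcr4, had log2 fold changes of -0.18 (SE 0.09) and 0.20 (SE 0.15), the latter 0.04 without CPIP+EA replicate 3.

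Ccl3, Ccl9, Pf4, Il1rn, Pglyrp1 and RT1-A1 are the transcripts that were also chosen for qPCR in the study. By qPCR, the study reports significantly higher levels of each of these transcripts after EA. The qPCR values were not used here, and what follows describes the RNA-Seq libraries only. Pf4, a platelet chemokine, had 6.79, 7.5 and 7.25 FPKM in CPIP and 9.28, 5.94 and 25 FPKM in CPIP+EA. Its log2 fold change of 0.61 was 0.05 without CPIP+EA replicate 3, the library with 25 FPKM. Il1rn, the antagonist of the interleukin 1 receptor, had 0.5, 1.04 and 0.73 FPKM in CPIP and 0.68, 0.97 and 1.93 FPKM in CPIP+EA, and Pglyrp1, an antibacterial protein of neutrophil granules, had 2.61, 4.17 and 1.92 FPKM and 1.6, 2.92 and 9.73 FPKM. Without CPIP+EA replicate 3 their log2 fold changes went from 0.38 to 0.09 and from 0.35 to -0.29. RT1-A1, a class I antigen-presenting gene, had 23.7, 39.6 and 47.8 FPKM in CPIP and 46.2, 50.6 and 74.8 FPKM in CPIP+EA, with a log2 fold change of 0.65 (SE 0.25) that became 0.44 on leaving out that library and 0.36 on leaving out CPIP replicate 1. Ccl3 and Ccl9 were therefore the 2 of the 6 whose groups did not overlap.

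Most of the cytokine genes listed were below 2 FPKM in each library. Of 14 tested, 2 were at an unadjusted p under 0.05. Il6 had 0.12, 0.36 and 0.66 FPKM in CPIP and 0.53, 0.83 and 0.95 FPKM in CPIP+EA, and Il1r2, the decoy receptor of interleukin 1, had 0.28, 0.37 and 0.36 FPKM and 0.48, 0.56 and 1.08 FPKM. The log2 fold changes of Il6 and Il1r2, 0.56 and 0.50, became 0.33 on leaving out CPIP replicate 1 and 0.29 on leaving out CPIP+EA replicate 3. The list median was -0.05, and 0.06 without CPIP+EA replicate 2. Tnf and Il1b had log2 fold changes of 0.24 (SE 0.17) and 0.11 (SE 0.32), with overlapping groups, and Il1b had 0.03 without CPIP+EA replicate 3.

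Markers of blood cells had higher medians in CPIP+EA, which depended on single libraries. All 22 neutrophil markers tested had a log2 fold change above 0, with a median of 0.65, but 0 were at an unadjusted p under 0.05 and 0 were free of overlap. Their summed level was 245, 413 and 58.6 FPKM in CPIP and 108, 280.3 and 990.4 FPKM in CPIP+EA, and 91.1, 322 and 182 FPKM in Sham. CPIP+EA replicate 3 was the highest library and CPIP replicate 3 the lowest. The median became -0.06 on leaving out CPIP+EA replicate 3, 0.09 on leaving out CPIP replicate 3 and 1.29 on leaving out CPIP+EA replicate 1. S100a8, the calgranulin of neutrophils, had 59.8, 90.8 and 11.4 FPKM in CPIP and 23.7, 64.8 and 238 FPKM in CPIP+EA. S100a9, its partner, had a log2 fold change of 0.87 (SE 0.90), which became 0.02 on leaving out CPIP replicate 3 and 0.05 on leaving out CPIP+EA replicate 3. The eosinophil granule genes Prg2 and Prg3 followed the same libraries, and Prg2 had 16.7, 28.1 and 7.17 FPKM in CPIP and 8.81, 21.8 and 93.8 FPKM in CPIP+EA. The median of 17 eosinophil, basophil and mast cell markers tested was 0.25, and -0.20 without CPIP+EA replicate 3.

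Erythroid genes put the 6 libraries in the same order. The summed level of the 19 erythroid markers was 1635, 2868 and 752 FPKM in CPIP and 826, 2583 and 6399.9 FPKM in CPIP+EA, with 1432, 4397 and 2289 FPKM in Sham. Their median log2 fold change was 0.59, and became 0.02 on leaving out CPIP+EA replicate 3 and 0.22 on leaving out CPIP replicate 3. The globins Hba1 and Hbb had log2 fold changes of 0.61 and 0.76, and -0.07 and -0.01 without that library. Macrophage markers, among them Lyz2 and the complement gene C1qa, had a median of 0.12 and -0.07 without it. For B and T cell markers the medians were 0.14 and -0.15, and for interferon-stimulated genes 0.16 and -0.36. Other left-out libraries raised these medians. Without CPIP+EA replicate 1 they were 1.07 for erythroid and 0.40 for B and T cell markers. Without CPIP+EA replicate 2 they were 0.28 for macrophage markers and 0.40 for interferon-stimulated genes. Bst2, an interferon-induced antiviral protein, had 41.1, 39.9 and 43.1 FPKM in CPIP and 32.8, 38.3 and 122 FPKM in CPIP+EA. Cd2, of T and NK cells, was an exception that lay wholly below CPIP, with 0.58, 0.69 and 0.85 FPKM in CPIP and 0.52, 0.16 and 0.16 FPKM in CPIP+EA. The B cell gene Cd79a had 1.8, 5.27 and 1.85 FPKM and 1.01, 2.97 and 8.38 FPKM, with overlap. How far blood left in the tissue adds to these values was not tested. In bulk tissue, fewer cells of a type and less RNA per cell cannot be told apart, here and for each cell type that follows.

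**Figure D3:**
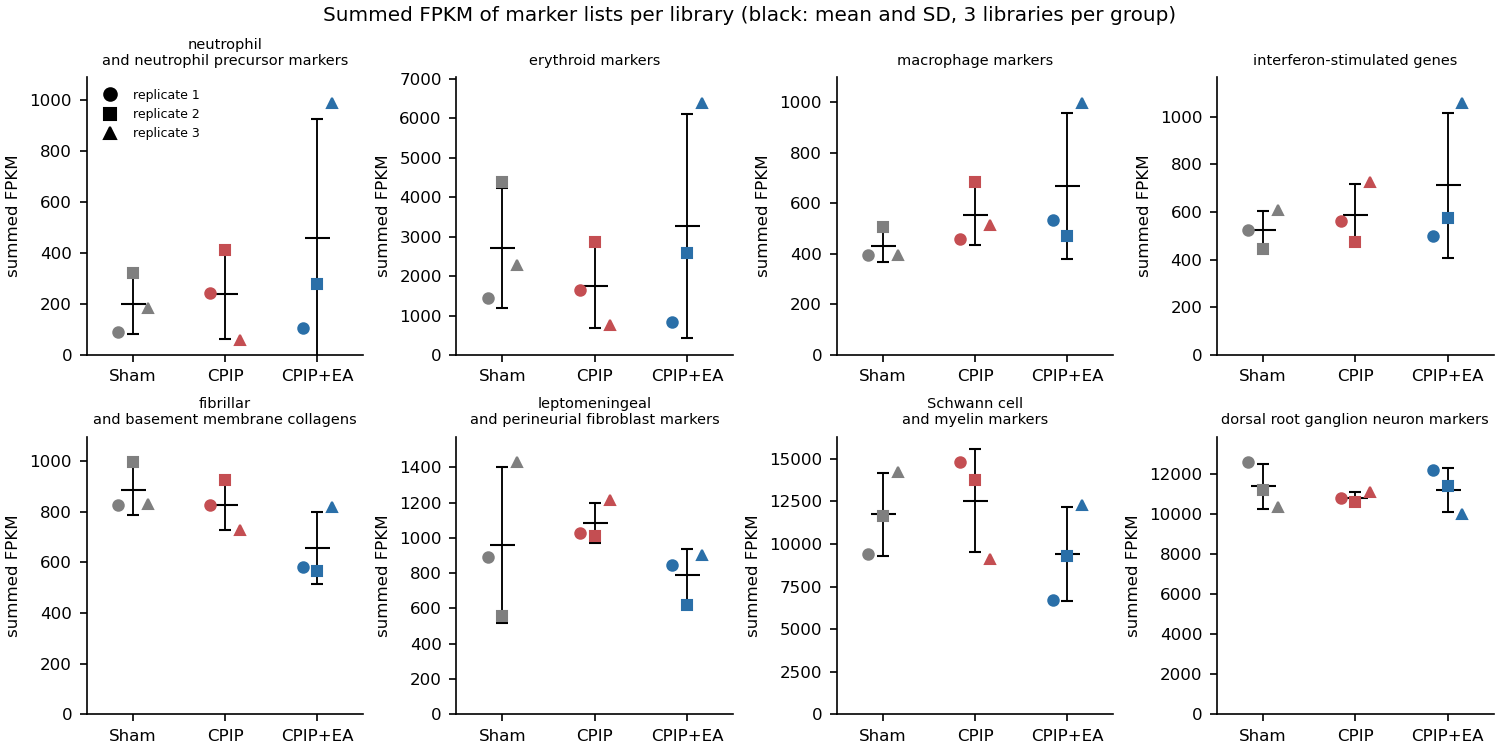
Summed FPKM (y axis, from 0) of 8 marker lists in each library of the 3 groups (x axis), with the mean and SD of 3 libraries in black, the neutrophil bar being clipped at 0. CPIP+EA replicate 3 is the highest of the 9 libraries for neutrophil (990.4), erythroid (6399.9), macrophage and interferon genes, while replicates 1 and 2 of CPIP+EA are the 2 lowest of the 9 for collagens.

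Genes of the extracellular matrix and of the connective tissue sheath had lower values in CPIP+EA. The cartilage collagen Col2a1 had 16.2, 13.3 and 8.77 FPKM in CPIP and 4.32, 4.77 and 6.29 FPKM in CPIP+EA, with 7.86, 8.44 and 12.5 FPKM in Sham. The CPIP+EA libraries were the 3 lowest of the 9. The log2 fold change was -1.21 (SE 0.24), between -1.45 and -1.02 with each library left out, and CPIP replicate 3 was the nearest to CPIP+EA. Col9a1, a collagen that coats type II fibrils, had 4.3, 4.55 and 2.71 FPKM in CPIP and 0.66, 1.83 and 2.52 FPKM in CPIP+EA, and Sham spread from 0.67 to 3.24 FPKM. Its log2 fold change of -1.08 was -0.69 without CPIP+EA replicate 1. Of 16 tested, Col2a1 and Col9a1 were the 2 at an unadjusted p under 0.05, and Acan, Comp and Hapln1 had log2 fold changes of -0.01, 0.09 and 0.11. The list median was -0.12, between -0.20 on leaving out CPIP+EA replicate 3 and -0.04 on leaving out CPIP+EA replicate 1. The defining cartilage proteoglycan Acan was at or below 0.19 FPKM in each library.

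All 23 fibrillar and basement membrane collagens tested had a log2 fold change below 0, with a median of -0.29, 6 of them at an unadjusted p under 0.05 and 4 free of overlap. Their summed level was 826, 926 and 729 FPKM in CPIP and 579, 566 and 819 FPKM in CPIP+EA, against 824, 996 and 831 FPKM in Sham. CPIP+EA replicates 1 and 2 were below the other 7 libraries, while replicate 3 lay among them. The median was -0.44 without CPIP+EA replicate 3 and -0.21 without CPIP+EA replicate 2. Col4a1 and Col4a2, the chains of the ubiquitous basement membrane network, had the smallest p-values. Col4a1 had 44, 43.5 and 34 FPKM in CPIP and 29.7, 26.9 and 32.5 FPKM in CPIP+EA, with a log2 fold change of -0.44 (SE 0.11). Col4a2 had 31.9, 32.2 and 25.7 FPKM and 23.1, 20.6 and 26 FPKM, with a log2 fold change of -0.36 (SE 0.11). Col4a5 and Col8a1 had -0.51 and -0.54. Among the fibrillar chains, Col1a1 had 172, 205 and 125 FPKM in CPIP and 87.5, 92.8 and 155 FPKM in CPIP+EA, and Col3a1 had 185, 218 and 156 FPKM and 106, 110.0 and 196 FPKM, with overlap owing to CPIP+EA replicate 3. Col5a3 and Col16a1 differed little, at -0.02 and -0.04.

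Markers of leptomeningeal and perineurial fibroblasts had the lowest median of the 33 lists, -0.44, with 25 of 27 genes below 0. Their summed level was 1030.2, 1010.0 and 1217 FPKM in CPIP and 847, 619.6 and 900.4 FPKM in CPIP+EA. These sums did not overlap between the groups, but Ptgds made up most of them, and the other 26 genes summed to 361, 387 and 413 FPKM in CPIP and 341, 289.8 and 369 FPKM in CPIP+EA, which overlapped. Over all members, Sham, at 889, 555 and 1431 FPKM, spanned both groups. The median was -0.50 without CPIP+EA replicate 3 and -0.22 without CPIP+EA replicate 2. Aldh1a1, which makes retinoic acid, had 25.5, 25.2 and 24.8 FPKM in CPIP and 9.68, 16.9 and 23.4 FPKM in CPIP+EA, and 25, 39.9 and 25 FPKM in Sham, with a log2 fold change of -0.67 that was -0.33 without CPIP+EA replicate 1. Ptgds, the prostaglandin D synthase of the meninges, had 669, 623 and 804 FPKM in CPIP and 506, 329.7 and 531 FPKM in CPIP+EA. The growth factor Igf2 had 19.9, 11.3 and 17.5 FPKM and 5.29, 6.05 and 11.2 FPKM, the lowest log2 fold change of the list at -1.10 (SE 0.51). The organic anion transporter Slc22a8 and the laminin Lamc3 had log2 fold changes of -0.76 and -0.49, the latter -0.30 without CPIP replicate 3. Crabp2 and Slc13a4 were the 2 members above 0. The genes of retinoic acid metabolism overlap with this list, and of 17 tested 2 were at an unadjusted p under 0.05, Aldh1a1 and the retinoic acid hydroxylase Cyp26b1, which had 2.43, 3.7 and 3.78 FPKM in CPIP and 1.35, 1.6 and 2.64 FPKM in CPIP+EA. The nuclear receptors Rara, Rarb and Rarg had log2 fold changes of -0.08, -0.15 and -0.13.

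Genes with a mean of at least 1 FPKM over the 6 libraries and an unadjusted p under 0.05 were ranked, predicted loci left aside. Among these, the 12 largest negative differences without overlap also included secreted and developmental genes. Cpz, a carboxypeptidase of the matrix that binds Wnt proteins, had 5.37, 3.23 and 4.86 FPKM in CPIP and 1.35, 1.89 and 2.11 FPKM in CPIP+EA, with a log2 fold change of -1.12 (SE 0.25). C1qtnf6, a secreted C1q and TNF related protein, had 4.75, 3.96 and 3.63 FPKM and 1.58, 2.03 and 3.11 FPKM. Zic2, a zinc finger factor of neural development, had 3.71, 4.32 and 5.03 FPKM and 2.75, 1.5 and 2.71 FPKM. Neither these genes nor Ch25h, the cholesterol 25-hydroxylase, overlapped between the groups, and Ch25h had 2.97, 3.24 and 2.39 FPKM in CPIP and 2, 1.1 and 1.43 FPKM in CPIP+EA. Casein Csn1s1 and S100a3 had log2 fold changes of -1.05 (SE 0.33) and -0.79 (SE 0.32), that of S100a3 being -0.48 without CPIP+EA replicate 1. S100a3 in CPIP+EA replicate 3, at 11.9 FPKM, was just under the lowest CPIP library, at 12.1 FPKM.

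Myelin genes had lower values on average, with wide spread. Of 20 Schwann cell and myelin markers tested, 16 were below 0, with a median of -0.26 and 0 free of overlap. Prx, a protein of mature myelin, had 254, 242 and 159 FPKM in CPIP and 110.2, 137 and 194 FPKM in CPIP+EA, with a log2 fold change of -0.58 (SE 0.24), and Pmp22 had -0.42 (SE 0.28), which ran from -0.68 without CPIP+EA replicate 3 to -0.18 without CPIP+EA replicate 1. The median was -0.50 without CPIP+EA replicate 3 and -0.14 without CPIP+EA replicate 1. Schwann cell genes that are not of compact myelin differed less, with Sox10, S100b and Erbb3 at -0.16, -0.06 and 0.01. Endothelial and mural markers had a median of -0.10 over 18 genes, between -0.23 on leaving out CPIP+EA replicate 3 and -0.02 on leaving out CPIP+EA replicate 1. The platelet-binding protein gene Vwf had 5.3, 4.58 and 3.68 FPKM in CPIP and 2.75, 2.33 and 4.37 FPKM in CPIP+EA, and the channel subunit Abcc9 of pericytes had 1.68, 1.76 and 1.89 FPKM and 1.12, 1.56 and 1.41 FPKM, without overlap.

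Satellite glia, which envelop the neurons, gave no shared direction, with a median of 0.01 over 12 genes. Fabp7, a fatty acid binding protein of these cells, had 25.1, 32.1 and 25.3 FPKM in CPIP and 41.1, 42.8 and 51.9 FPKM in CPIP+EA. Its Sham values of 25.6, 55 and 37.1 FPKM ran from the level of CPIP to above that of CPIP+EA, and the log2 fold change was 0.71 (SE 0.24). Glul, the glutamine synthetase of the same cells, lay the other way, with 122, 123 and 103 FPKM in CPIP and 100.2, 97.2 and 103 FPKM in CPIP+EA. Hes5, a target of Notch signaling, had 3.22, 1.63 and 2.49 FPKM and 3.63, 3.98 and 3.68 FPKM, wholly above CPIP, with a log2 fold change of 0.57 that was 0.35 without CPIP replicate 2. Gstt3, a glutathione transferase, had 12.9, 13.8 and 14.8 FPKM and 20.2, 17.6 and 25.1 FPKM, with 21.3, 21.6 and 16.1 FPKM in Sham, so that CPIP was the lowest group.

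Galanin, a neuropeptide that marks injured neurons, had CPIP+EA values above those of CPIP, farther from Sham. NPY, another such peptide, had the same order, but its groups nearly met, at 395 FPKM in CPIP and 396 FPKM in CPIP+EA. Galanin (Gal), a peptide that injured sensory neurons release, had 37, 41 and 48.1 FPKM in CPIP and 63, 60.4 and 52.9 FPKM in CPIP+EA, against 4.66, 5.32 and 5.4 FPKM in Sham. All 3 CPIP+EA libraries were above all CPIP libraries, with a log2 fold change of 0.48 (SE 0.11, between 0.39 and 0.58 with each library left out). Vip had 13, 10.4 and 17 FPKM in CPIP and 21.8, 16.6 and 15.9 FPKM in CPIP+EA, and Npy had 351, 366 and 395 FPKM and 396, 405 and 414 FPKM, the former with and the latter without overlap. In Sham, Vip had 0.24, 0.12 and 0.08 FPKM and Npy 3.92, 7.09 and 1.14 FPKM. Atf3, the transcription factor that marks axon injury, had 55.9, 50.5 and 61.6 FPKM in CPIP and 72.9, 74.9 and 57.4 FPKM in CPIP+EA, with a log2 fold change of 0.28 (SE 0.14). Of 24 injury genes tested, 18 were above 0, with a median of 0.07 and 3 at an unadjusted p under 0.05, all 3 higher, namely Gal, Vip and Klf6, a zinc finger factor of axon regrowth, which had 23.4, 22.3 and 21.8 FPKM in CPIP and 26.5, 23.8 and 24.9 FPKM in CPIP+EA. Leaving out any library kept the median between 0.05 and 0.15. Csf1, by which injured neurons act on microglia, lay wholly below CPIP, with 13.3, 14 and 13.7 FPKM in CPIP and 13.1, 12.6 and 12 FPKM in CPIP+EA.

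A pair of genes outside these lists had the same order of groups as galanin. Crisp1, a cysteine-rich secretory protein, had 0.12, 0.12 and 0.08 FPKM in Sham, 2.9, 3.76 and 4.28 FPKM in CPIP and 5.36, 5.68 and 5.48 FPKM in CPIP+EA. Csrp3, a LIM protein of muscle, had 0.44, 0.46 and 0.37 FPKM in Sham, 5.28, 3.43 and 7.02 FPKM in CPIP and 12.5, 8.28 and 7.49 FPKM in CPIP+EA. Their log2 fold changes over CPIP were 0.55 (SE 0.13) and 0.81 (SE 0.25), and neither overlapped. The list of skeletal muscle markers, of which Acta1 and Tnnt3 are the most abundant, varied with CPIP replicate 2, and its median of -0.11 became 0.50 on leaving it out and -0.60 on leaving out CPIP replicate 3. Klrk1, the NKG2D receptor of NK and T cells, had 0.9, 1 and 1.3 FPKM in Sham, 2.5, 1.56 and 3.3 FPKM in CPIP and 3.72, 3.4 and 3.83 FPKM in CPIP+EA. At an unadjusted p under 0.05 and a mean of at least 1 FPKM, the 12 largest positive differences without overlap further held several others, predicted loci left aside. The kinase gene Cdkl4 had 2.54, 2.17 and 1.93 FPKM in CPIP and 4.07, 3.08 and 3.19 FPKM in CPIP+EA. The mitochondrial ribosome gene Mrpl30 had 1.27, 1.46 and 1.03 FPKM and 2.35, 1.64 and 2.2 FPKM. Ankra2 and Fam115c had log2 fold changes of 0.54 and 0.54, the latter 0.34 without CPIP+EA replicate 3.

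Few genes of sensory transmission separated the groups. Among 15 neuropeptides tested the median was 0.06, and beside Gal and Vip only Iapp was at an unadjusted p under 0.05, with 17, 19.4 and 15.2 FPKM in CPIP and 14.7, 11.4 and 10.8 FPKM in CPIP+EA. Adcyap1 (PACAP) overlapped, with 44.2, 41.6 and 45.5 FPKM in CPIP and 57.2, 42.9 and 38.9 FPKM in CPIP+EA, against 24.5, 23.1 and 21.1 FPKM in Sham. Calca and Tac1, which encode CGRP and substance P, had log2 fold changes of 0.01 (SE 0.17) and 0.07 (SE 0.10). Of 32 nociceptor channels and receptors tested, 0 were at an unadjusted p under 0.05 and 0 were free of overlap, with a median of -0.06. The heat sensor Trpv1 had 27, 24.7 and 30.2 FPKM in CPIP and 32.8, 34.2 and 20.8 FPKM in CPIP+EA, and the sodium channel Scn10a had 54.4, 57.8 and 54.4 FPKM and 56.2, 49.4 and 32.8 FPKM. CPIP+EA replicate 3 was the lowest of the 6 libraries for both, and also for P2rx3 and Ret, and without it the median of the list was 0.08. General neuron markers had a median of -0.02, 0.10 without CPIP+EA replicate 3, and log2 fold changes of 0.04 for Nefl and 0.03 for Nefm.

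Opioids, adenosine and endocannabinoids are the signals most often studied in the analgesia of EA. The 8 opioid receptors and peptides had a median of -0.01 (0.09 without CPIP+EA replicate 3), and 0 were at an unadjusted p under 0.05. The nociceptin receptor Oprl1 had 16.4, 14.7 and 18.2 FPKM in CPIP and 17.6, 18.6 and 16.2 FPKM in CPIP+EA, and the kappa receptor Oprk1 had a log2 fold change of -0.07 (SE 0.12) that was -0.01 without CPIP+EA replicate 3. The mu receptor Oprm1 varied widely, with 2.27, 1.23 and 2.46 FPKM and 1.59, 4.32 and 1.49 FPKM. Of 16 adenosine and endocannabinoid genes, Dagla, which makes the endocannabinoid 2-AG, was at an unadjusted p under 0.05, with 13.5, 14.2 and 13.9 FPKM in CPIP and 13.3, 11.4 and 9.8 FPKM in CPIP+EA. The enzyme that degrades it, Mgll, had a log2 fold change of -0.30 (SE 0.16) that was -0.17 without CPIP+EA replicate 1, and the kinase Adk that clears adenosine -0.06 (SE 0.07). The list median was -0.03.

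Cell division genes had a median of 0.23, with 18 of 21 above 0, and -0.02 without CPIP+EA replicate 3. Birc5 (survivin) had 1.65, 1.81 and 1.46 FPKM in CPIP and 1.92, 2.2 and 3.47 FPKM in CPIP+EA, with a log2 fold change of 0.47 that was 0.26 without CPIP+EA replicate 3, and Rrm2 a log2 fold change of 0.30 that was -0.07 without that library. Hypoxia response genes had a median of -0.02, with the glycolytic enzyme Pgk1 wholly above CPIP at 0.21 and the factor Epas1 wholly below it at -0.18. Markers of central glia and choroid plexus, most of them below 2 FPKM in each library, had a median of 0.02, with Enpp6 at 0.49 and Folr1 at -0.43. Among 8 genes typical of liver, with a median of 0.31 (0.07 without CPIP+EA replicate 3), albumin Alb had 0.21, 0.4 and 0.33 FPKM in CPIP and 0.93, 1.44 and 0.85 FPKM in CPIP+EA, and the fatty acid binding protein gene Fabp1 had 0.12, 0.13 and 0 FPKM and 0.49, 0.62 and 1.37 FPKM and was listed at 0 in each Sham library. Both were free of overlap but below 1.5 FPKM, and Ttr had a log2 fold change of -0.77 (SE 0.56).

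**Figure D4:**
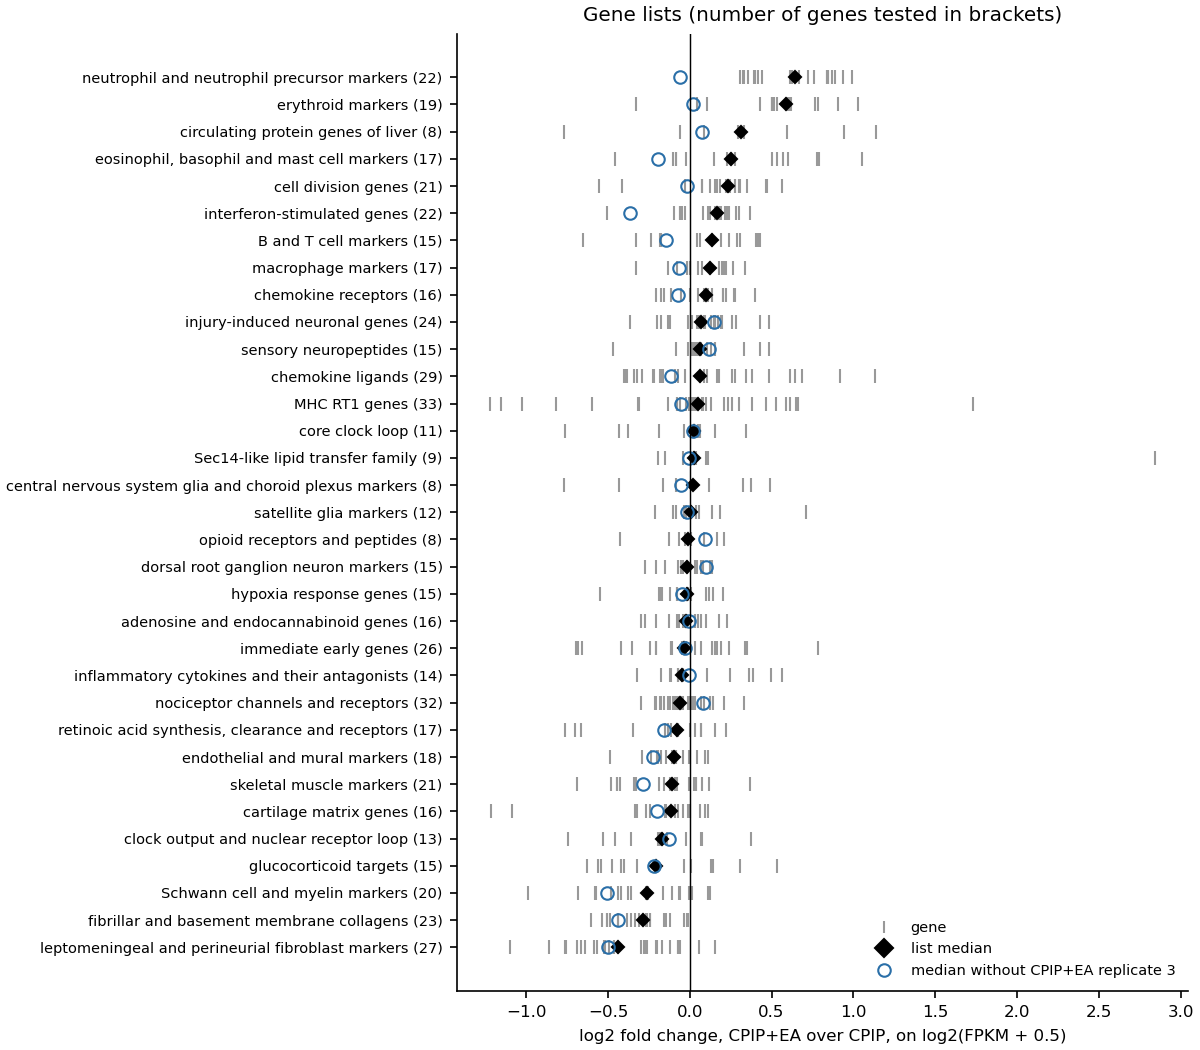
Log2 fold change of CPIP+EA over CPIP (x axis, on log2(FPKM + 0.5)) of each gene tested (gray ticks) in 33 lists (y axis, ordered by median), with the list median as a black diamond and the median without CPIP+EA replicate 3 as an open circle. The neutrophil median moves from 0.65 to -0.06 without that library, while those of collagens (-0.29 to -0.44) and leptomeningeal genes (-0.44 to -0.50) stay below 0.

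Some of the largest differences were in genes with a near copy, where reads can be assigned to either gene. Ndufa10l1, a copy of the complex I subunit gene Ndufa10, had 18.7, 18 and 17.4 FPKM in CPIP and 0, 0.01 and 0.08 FPKM in CPIP+EA. In Sham it had 20.6, 14 and 0 FPKM, so that Sham replicate 3 was also at 0. Its log2 fold change was -5.13, and -0.07 (SE 0.08) once the FPKM of both genes were summed. Ndufa10 alone had a log2 fold change of 0.22 (SE 0.06). H3f3c, a copy of the histone H3.3 gene H3f3b, had 15.7, 17.3 and 9.75 FPKM in CPIP and 2.35, 0.98 and 3.4 FPKM in CPIP+EA, with a log2 fold change of -2.50. Summed with H3f3b it had 174, 188 and 167 FPKM in CPIP and 146, 167 and 204 FPKM in CPIP+EA, with a log2 fold change of -0.04 (SE 0.12). H3f3c is so small a part of this sum that a difference of its size lies within the SE, so the sum does not show whether reads moved between the genes. Gemin7l1 had a log2 fold change of 0.68 alone and 0.32 (SE 0.10) when summed with Gemin7, whose own log2 fold change was -0.06 (SE 0.13). Tsen34l1 had 0.01 (SE 0.07) summed with Tsen34, whose own log2 fold change was -0.25 (SE 0.17). Tsen34l1 and all 4 sums were chosen after the values were seen. The predicted loci LOC108352882 and LOC103692761, which had the smallest p-values after Sec14l3, had log2 fold changes of 1.05 and -0.90 at under 1 FPKM in each library. The RT1 genes of antigen presentation, RT1-A1 included, form a family of similar genes among which reads could be split, so their values are uncertain, and this was not tested. Of 33 tested, 20 were above 0, with a median of 0.05, and without CPIP+EA replicate 3 these were 15 of 32, with a median of -0.06. The median was 0.24 without CPIP replicate 3 and -0.08 without CPIP replicate 1. RT1-DMb had 3.64, 11.7 and 0.38 FPKM in CPIP and 9.33, 9.86 and 15.4 FPKM in CPIP+EA, with a log2 fold change of 1.73 that was 0.73 without CPIP replicate 3, and RT1-N2 had 9.34, 4.32 and 5.65 FPKM and 3.47, 2.2 and 2.71 FPKM.

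**Figure D5:**
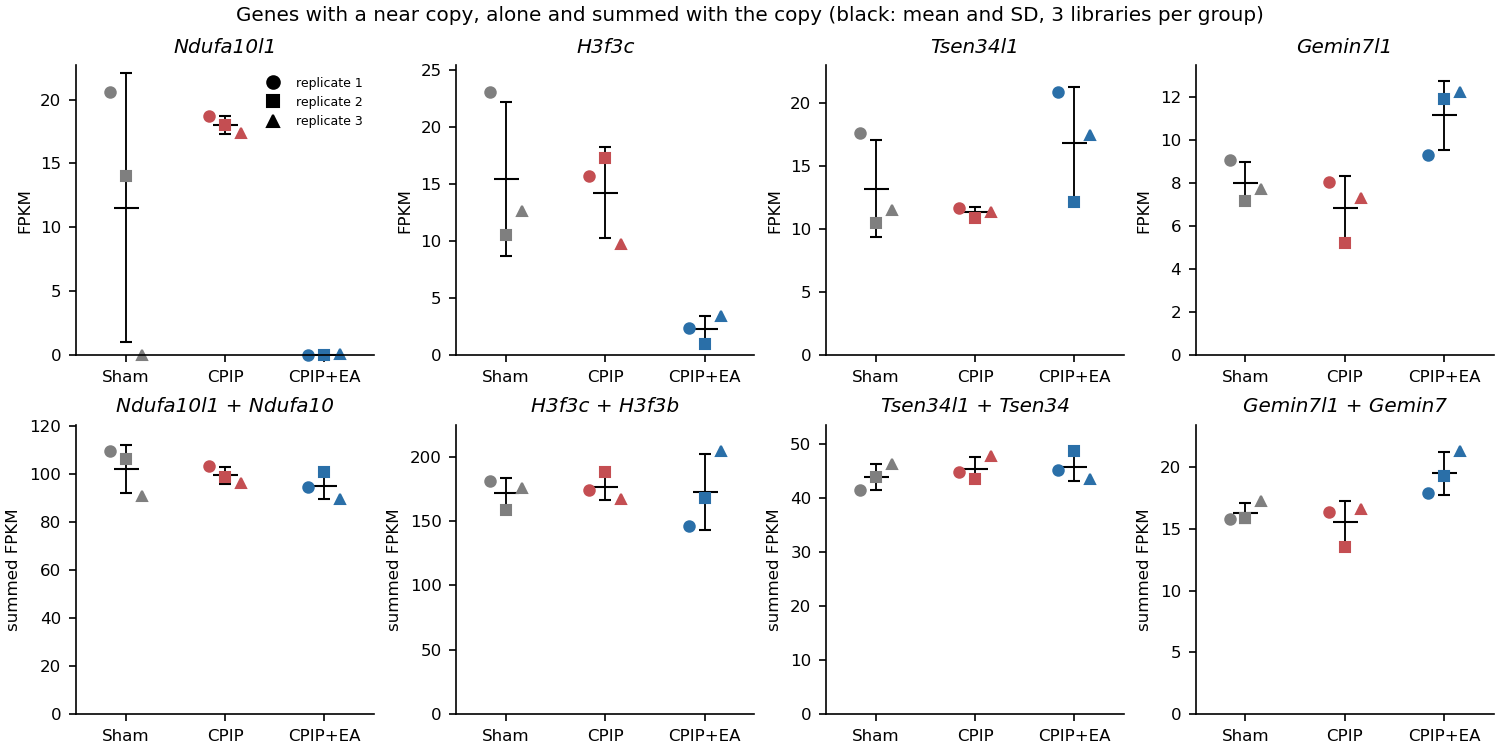
FPKM (y axis, from 0) of 4 genes with a near copy, alone in the upper row and summed with the copy in the lower row, in each library of the 3 groups (x axis), with the mean and SD of 3 libraries in black. The log2 fold change of Ndufa10l1 is -5.13 alone and -0.07 summed with Ndufa10, and that of H3f3c, a small part of its sum, is -2.50 alone and -0.04 summed.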

How the data were processed

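RNA-Seq of ipsilateral L4-6 DRGs was analysed in 9 rats, 3 each of Sham, CPIP and CPIP+EA, grouped by sample titles. Per the study's methods the authors selected poly(A) RNA, sequenced single-end reads on a BGISEQ instrument and filtered them with SOAPnuke, whereas the labels name Illumina library protocols. The authors deposited FPKM values per gene and library. The aligner, counter, genome build and annotation are not given in the sources used here. The 9 deposited columns of the authors' own comparisons (log2 ratios, p-values and q-values) were not used. Read counts could not be recovered, so no count test was run.

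Genes averaging 0.1 FPKM or more in the 9 libraries were fitted on a log2 scale after adding 0.5 FPKM, in limma 3.58.1 (R 4.3.3), with all 9 libraries in 1 fit, a mean-variance trend, no covariate and two-sided p-values adjusted by Benjamini-Hochberg over the 17187 genes. A call required an adjusted p under 0.01 and a change of 1.5-fold or more either way. The 19 alternatives were other pseudocounts (0.1 and 1), other filters (none, and a mean FPKM of at least 1), TPM, median and quantile scaling, no trend, the 6 compared libraries alone, a replicate block and 9 fits with 1 library left out. The fit was also run on simulated data with independent noise for each gene. These held no shift shared by the genes of a library, such as that of CPIP+EA replicate 3.

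The members, the 33 gene lists and the naming rule were chosen with earlier results of these data known. Named were 5 marker genes, the 6 qPCR genes, the 12 largest differences in each direction (unadjusted p under 0.05, no overlap, mean of at least 1 FPKM over the 6 libraries, no predicted locus), up to 4 members of each list with the smallest p under 0.05 or, failing 2 of these, the 2 most abundant, and the 3 genes with the smallest p. Other genes were named after their values were seen, and a few listed genes are not reported here by name. Promoters are from RefSeq (GRCr8), matched by gene ID. Figures were drawn with matplotlib 3.10.9 in Python 3.11.15.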

Additional observations from a re-analysis of the deposited data

How the results depend on the processing

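No gene passed the threshold under 14 of the 19 alternatives. In the fit of the 6 CPIP and CPIP+EA libraries alone 1 gene passed, and with 1 library left out 0 to 2 genes passed. At an unadjusted p under 0.05, leaving out 1 library gave 259 to 592 higher and 227 to 737 lower genes. The rats were not treated as paired by replicate number, since nothing in the sources gives numbers a shared origin. Same-numbered deviations from the group means had correlations of -0.08, -0.03 and -0.24. Those of different numbers ran from -0.22 to 0.28. So few correlations cannot show whether a pairing exists. With the replicate block no gene passed, the smallest adjusted p was 0.0199, and 367 genes were higher and 329 lower at an unadjusted p under 0.05. With TPM values 308 genes were higher and 427 lower, and with median centring 479 and 287. Among genes named by the rule, these log2 fold changes changed sign when 1 library was left out, over the range given: Pglyrp1 -0.29 to 0.85, S100a8 -0.0374 to 1.63, Prg2 -0.11 to 1.56, Prg3 -0.31 to 1.14, Hba1 -0.0714 to 1.34, Hbb -0.0067 to 1.61, Lyz2 -0.11 to 0.49, C1qa -0.13 to 0.43, Cd79a -0.46 to 0.82, Bst2 -0.22 to 0.72, Acta1 -1.06 to 0.54, Tnnt3 -1.36 to 0.45, Rrm2 -0.0741 to 0.648, Ret -0.306 to 0.0245, Adk -0.107 to 0.00356, Nefl -0.0278 to 0.0943, Nefm -0.0485 to 0.102, Sec14l1 -0.0423 to 0.0716 and P2rx3 -0.0846 to 0.172. The log2 fold change of P2rx3 also changed sign with TPM values, at -0.00673, and with quantile normalization, at -0.00747. Without changing sign, leaving out 1 library moved Vip to 0.26 (CPIP replicate 2), Klrk1 to 0.30 (CPIP replicate 2), Vwf to -0.32 (CPIP+EA replicate 2), Dagla to -0.17 (CPIP+EA replicate 3), Oprk1 to -0.14 (CPIP+EA replicate 2) and Ackr1 to -0.27 (CPIP+EA replicate 1). The cause was not tested. The table holds no counts, so the counting error of low values is not known here, and with 3 rats per group a difference has to be large against their spread to pass.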
